A study of Mus musculus with 2 samples.

Results

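The transglutaminase family of the mouse was followed through Tgm1, Tgm2, Tgm3, Tgm4, Tgm5, Tgm6 and F13a1, 7 genes of the 19938 that could be measured on the arrays. The genes were selected on family membership after the large difference of Tgm2 between the arrays was known, so the difference of Tgm2 is a description and carries no test. RNA came from i-OSKM-ESC, a line made from KH2 mouse embryonic stem cells of strain 129 in which the drug doxycycline switches on 4 reprogramming factors (Oct4, Klf4, c-Myc and a Sox2 that carries an epitope tag). The plus doxycycline cells received the drug at 4 µg/mL for 24 hours, and the no doxycycline cells carried the same inducible genes and were given fresh medium in its place. Both cultures grew on gelatin-coated plastic and gave 1 whole-transcript array each. With 1 array per group there is no replicate error and no test of any difference, and precision is limited by having only 2 arrays. Parental cells given doxycycline were not analysed here, so the drug and the factors cannot be told apart.

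Transglutaminases join proteins by a bond between a glutamine and a lysine side chain, in a reaction that needs calcium, and the bond resists ordinary proteases. Transglutaminase 2, the product of Tgm2, is found in most tissues, both inside cells and in the extracellular matrix, and also binds GTP, which shuts off its crosslinking activity. Transglutaminases 1, 3 and 5 build the cornified envelope of the epidermis, transglutaminase 4 acts in the prostate and clots the ejaculate of rodents, transglutaminase 6 is known from neurons, and F13a1 encodes the catalytic subunit of clotting factor XIII. Retinoic acid, TGF-beta and NF-kappaB are known inducers of Tgm2.

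The values are log2 RMA values, in which the authors had corrected the background, aligned the arrays and summarised the probes of each probeset. They ran between 2.49 and 14.2 in both arrays, and the Pearson r between the arrays was 0.989 across all genes, which are not independent of each other. The expression filter kept genes with at least 1 value of 6.48 or more, which is the table's median, and a kept gene was called higher or lower if it differed 2-fold or more. Of the 10 embryonic stem cell markers, 10 passed this filter and 8 were at a lower value in the plus doxycycline array, with a median difference of -0.48. Over all genes passing the filter the median was -0.03, and 44.4% had a positive difference. The marker list includes Pou5f1, the gene of Oct4, and Sox2, which are also induced factors. Klf2, with 6.79 with doxycycline and 8.17 without, and Sox2 were called lower. Pou5f1, Klf4 and Myc were 1.28-fold to 1.34-fold higher with doxycycline, whereas Sox2 had 10.88 with doxycycline and 11.89 without, a difference of -1.01, or -0.996 once 32 was added to the linear values. The gene values of the 4 induced factors therefore did not move one way. These values do not separate the induced copy of a factor from the cell's own gene, so induction cannot be read from them. All directions given here rest on the labels of the arrays.

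Tgm2 was 7.11-fold higher with doxycycline, while the other 6 family genes differed by at most 1.52-fold in either direction. Of the 7 genes, 3 passed the expression filter, 1 was called higher and 0 were called lower. Across the array 11191 genes passed, of which 0.920% were called higher and 0.768% called lower. Tgm2 was one of these calls by the way the family was chosen, so its count is not read against that share. The median log2 difference (plus minus no doxycycline) was 0.04 over the 7 genes and -0.02 over the 6 without Tgm2, beside 0.01 over all genes. Differences were positive for 4 members and negative for 3. Each member was read by 1 probeset assigned to it alone, and 0 probesets were shared between a member and another gene, so no second probeset checks any of these values.

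Tgm2, read by probeset 10489204, had a log2 value of 10.23 in the plus doxycycline array, against 7.40 in the no doxycycline array. Both values lay above the filter, and the log2 difference was 2.83. Among genes passing the filter only Fah, the last enzyme of tyrosine breakdown, had a larger positive difference, with a log2 difference of 3.01. Of the 1286 other genes whose mean of both arrays lay within 0.25 log2 units of that of Tgm2, 0 differed by as much in either direction, and 90% of those genes had differences between -0.52 and 0.38. These counts describe the spread across genes in 2 arrays and are not p-values. For scale, 492 genes had 2 probesets that passed the filter, and the paired probesets scattered around their gene's difference with an SD of 0.167. This is a spread between probesets of a gene within these arrays and not an error between cultures.

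**Figure D1:**
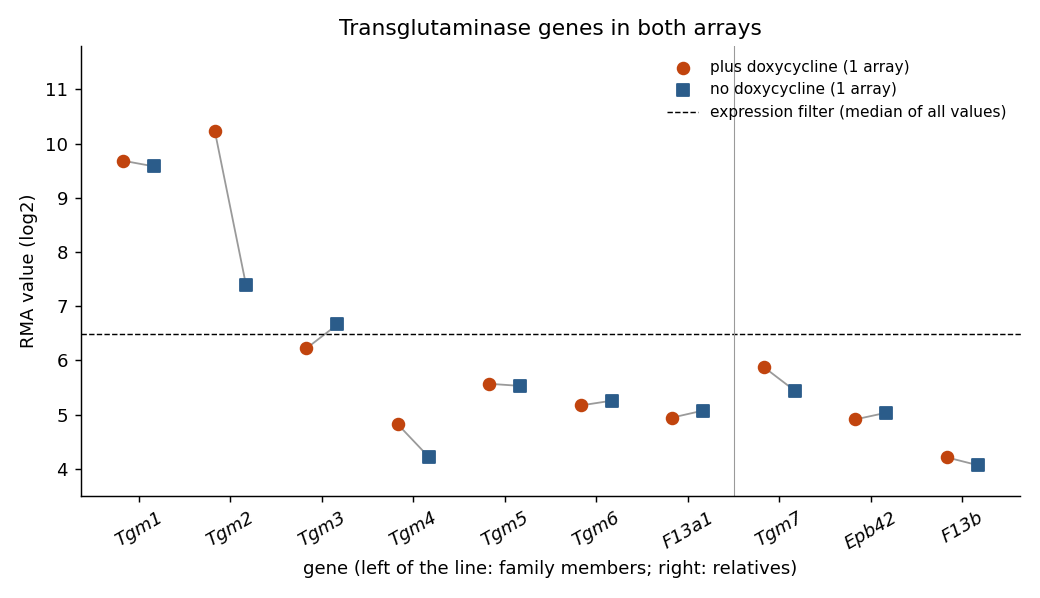
Log2 RMA values (vertical axis) of the 7 transglutaminase genes and of Tgm7, Epb42 and F13b in the plus doxycycline array (circles) and the no doxycycline array (squares), 1 array each, with the expression filter at 6.48 as a dashed line. Tgm2 stands at 10.23 with doxycycline and 7.40 without, and the remaining pairs lie close together. Heights of different genes come from different probes and are not comparable. F13b, drawn with the relatives, encodes the carrier subunit of factor XIII.

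None of the 3 epidermal enzyme genes was called. Tgm5 lay below the filter and could not be called. Of all genes passing the filter, 0.920% were called higher and 0.768% lower, so this count is near the background. Tgm1, which encodes the membrane-bound transglutaminase of keratinocytes, had 9.68 with doxycycline and 9.58 without. Its log2 difference was 0.11, and 533 of 882 genes of like brightness (60.4%) differed by at least that much. Tgm1 was thus well above the filter in both arrays with nearly equal values.

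Tgm3, the transglutaminase of hair follicle and epidermis, had 6.22 with doxycycline and 6.66 without, so only the value without doxycycline lay above the filter, by 0.18. Its log2 difference of -0.44 was opposite in sign to that of Tgm2 and was 1.36-fold. Among genes of like brightness, 14.8% differed by at least as much, and their 5th and 95th percentiles were -0.48 and 0.52. Tgm5, which acts in the outer epidermis and whose loss causes skin peeling in people, had 5.57 with doxycycline and 5.53 without, both below the filter. Its difference of 0.04 became -0.06 when a loess trend on mean expression was removed, so its sign depends on the scaling.

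Like Tgm5, the genes Tgm4, Tgm6 and F13a1 lay below the filter in both arrays. Tgm4, the prostate enzyme, had 4.82 with doxycycline and 4.22 without, a log2 difference of 0.60. Only 25 of 1338 genes of like brightness (1.87%) differed by as much, but the difference was 0.25 with 32 added to the linear values, which damps differences between dim values. The deposited table has no detection call, so these levels cannot be separated from background. Tgm6, known from neurons, had 5.17 with doxycycline and 5.26 without, a difference of -0.09. F13a1, the factor XIII subunit made by macrophages and platelet precursors, had 4.94 with doxycycline and 5.08 without, a difference of -0.13. For Tgm6 and F13a1, 70.6% and 55.0% of genes of like brightness differed by at least as much.

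**Figure D2:**
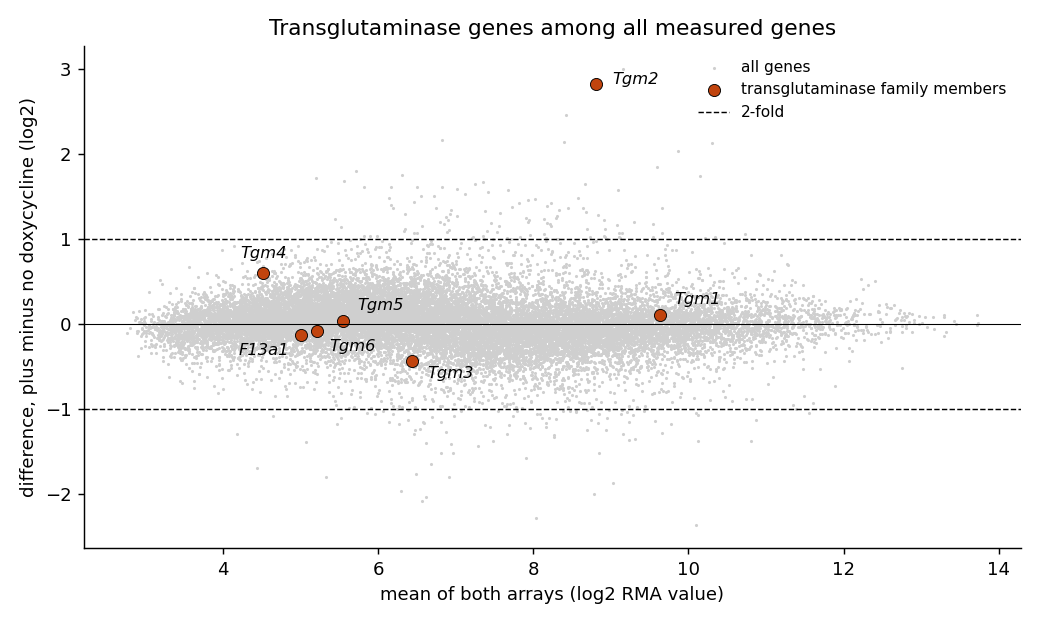
Log2 difference, plus minus no doxycycline (vertical axis), against the mean of both arrays (horizontal axis, log2 RMA value) for all 19938 genes (grey) and the 7 transglutaminase genes (orange), with dashed lines at 2-fold. Tgm2 stands at 2.83 near the top of the cloud, and the other 6 members lie between -0.44 and 0.60.

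Tgm7, Epb42 and F13b were read beside the members, F13b as a binding partner of F13a1 and not as a transglutaminase gene. Tgm7, the remaining transglutaminase gene, had 5.88 with doxycycline and 5.44 without, a difference of 0.44 that was reached or passed by 11.3% of genes of like brightness. With the offset of 32 it was 0.27. Epb42, which encodes the red cell membrane protein band 4.2, a family member without enzyme activity, had 4.91 with doxycycline and 5.03 without. F13b, the carrier subunit that binds F13a1 in plasma, had 4.21 with doxycycline and 4.07 without. All 3 lay below the filter in both arrays.

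Several of these genes lie side by side in the mouse genome, which is a property of the family and not a result of these arrays. In the gene order of assembly GRCm38.p6, used here only for order because the array files name no build, Epb42, Tgm5 and Tgm7 are consecutive measured genes, and Tgm3 and Tgm6 are separated by 1 measured gene. Tgm2 has no family member among its 10 nearest measured genes. Those 10 neighbours, 5 on each side, had log2 differences between -0.70 and 0.25 with a median of -0.04, and 0 of them reached 2-fold. Of the 10, 7 passed the filter, and the 3 nearest on one side, D630003M21Rik, Bpi and Lbp, did not. With 0.920% of filtered genes called higher and 0.768% called lower, a count of 0 among the 7 that passed is near the background. The measured genes next to Tgm2, Rprd1b and D630003M21Rik, had differences of -0.05 and -0.02. Rprd1b encodes a protein that binds the tail of RNA polymerase II. The lowest of the 10 was Nnat, an imprinted gene expressed in neurons, with 7.10 with doxycycline and 7.80 without. Snhg11, a noncoding gene that hosts small nucleolar RNAs, had -0.46, and Tti1, which encodes a chaperone cofactor for large kinases, had -0.31. Lbp, encoding the lipopolysaccharide-binding protein, had 0.25, Vstm2l 0.15, Ctnnbl1 -0.02 and Bpi -0.01. Snhg17, with 3 probesets, had -0.07 by their mean and -0.29 by the brightest.

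The 10 neighbours of Tgm3 had differences between -0.18 and 0.07, and the 10 neighbours of Tgm5 between -0.29 and 0.44, where the highest was Tgm7.

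**Figure D3:**
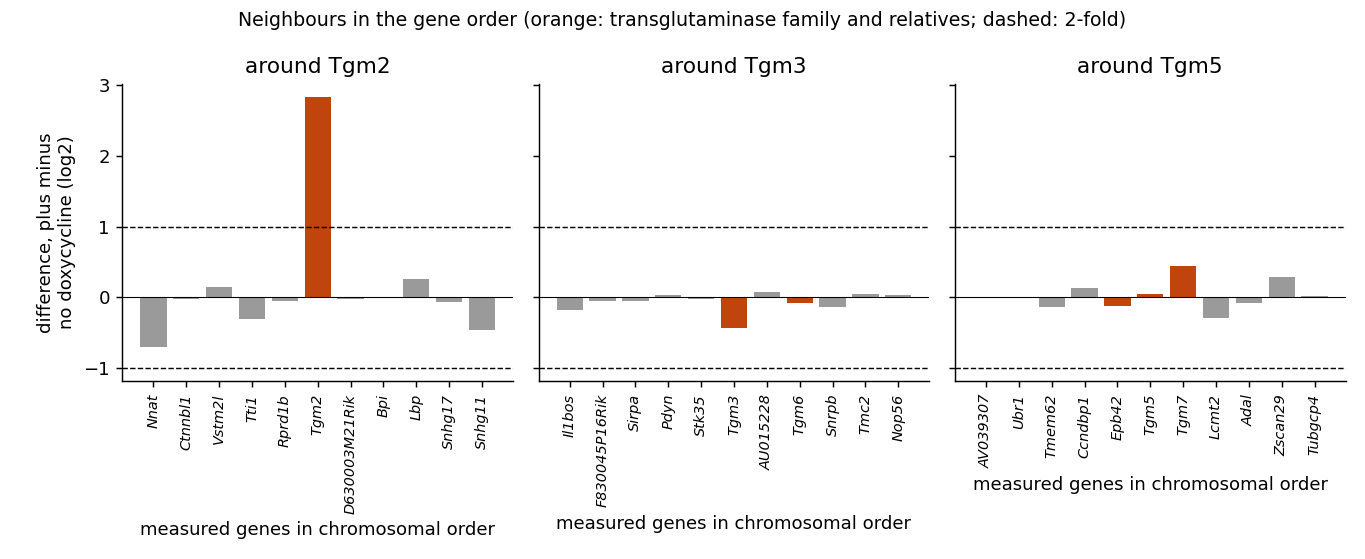
Log2 difference, plus minus no doxycycline (vertical axis, bars from 0), of the 5 measured genes on each side of Tgm2, Tgm3 and Tgm5 in chromosomal order (horizontal axis), with transglutaminase genes and relatives in orange and 2-fold as dashed lines. The bar of Tgm2 reaches 2.83 while its 10 neighbours lie between -0.70 and 0.25.

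The genes most like Tgm2 were sought as the 5 with the smallest Euclidean distance over the pair of log2 values, a measure over only 2 arrays that weighs the level as well as the difference. Levels of different genes come from different probes and are not comparable, so the list describes where the deposited values lie and not a shared behaviour. They were Fah (distance 0.49), Atp2a3 (0.62), Fgf18 (0.76), Tppp3 (0.86) and Podxl (0.97). Atp2a3, whose product pumps calcium into the endoplasmic reticulum, had 9.65 with doxycycline and 7.19 without. Fgf18, a fibroblast growth factor gene, had 9.47 with doxycycline and 7.33 without. Tppp3, which encodes a tubulin-binding protein, had 9.49 with doxycycline and 7.84 without, and Podxl, which encodes the sialomucin podocalyxin, had 9.88 with doxycycline and 8.30 without. The log2 differences of these 4 genes lay between 1.58 and 2.46, below that of Tgm2. By the difference alone, Tppp3 ranked 14 and Podxl 21 among genes passing the filter, so other genes were closer to Tgm2 in that respect.

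Genes tied to transglutaminases by substrate, partner or inducer were examined in 10 lists, of which 87 of 97 genes were measured and 10 were not analysed here. Of the 55 that passed the filter, 2 were called higher (Itgb3 and Dsp) and 1 lower (Smad7), beside 0.920% and 0.768% of all genes. The median log2 difference over the 87 genes was 0.03, beside 0.01 over all genes. The lists were chosen with earlier results of these data known, and their counts are descriptions.

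Transglutaminase 2 crosslinks matrix proteins and sits at the cell surface with integrins and syndecans. Of 14 measured genes of this list, 7 had positive and 7 negative differences, and the median was -0.02, a sign that turned to 0.02 with a loess trend removed, 0.01 with quantile normalization and 0.10 over the 13 genes passing the filter. Itgb3, which encodes the integrin beta 3 chain, had 7.65 with doxycycline and 6.38 without, a log2 difference of 1.27 that was 1.02 with the offset of 32. The heparan sulphate proteoglycan genes went opposite ways, Sdc2 with 7.10 with doxycycline and 6.18 without, and Sdc4 with 7.99 with doxycycline and 8.71 without. Nid1, which encodes the basement membrane linker nidogen, a known substrate, had a difference of 0.87. Fibronectin, the best known matrix partner of transglutaminase 2, had 11.59 with doxycycline and 11.92 without in its gene Fn1, a difference of -0.33. No member of this list other than Itgb3 reached 2-fold.

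Among intracellular substrates, 0 of 7 genes passing the filter were called, and the median over the 8 measured was 0.22. Mapt, which encodes the microtubule protein tau, had a difference of 0.81. S100a11, a calcium-binding protein gene, had 0.63, the retinoblastoma gene Rb1 0.43 and the NF-kappaB inhibitor gene Nfkbia -0.29. Partners that set the redox state or signalling of transglutaminase 2 had a median of 0.17 over 6 genes with 0 called. Txnrd1, encoding the reductase that recharges thioredoxin, had -0.56, Plcd1, a phospholipase gene, 0.33, the disulphide isomerase gene Pdia3 0.31 and the calreticulin gene Calr 0.12. Txn1, whose product thioredoxin can activate the enzyme by reducing a disulphide, had nearly the same value in both arrays, 13.45 each.

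The substrates of the other enzymes were mostly dim. Of 11 measured cornified envelope genes, 4 passed the filter and Dsp was called higher, with 8.08 with doxycycline and 6.99 without, a log2 difference of 1.09 that fell under 2-fold with the offset (0.92). Dsp encodes desmoplakin, a desmosome protein that is also made outside the epidermis. The envelope genes Ivl and Lor lay below the filter, and Tchh, Evpl and Ppl, which passed it, had differences of 0.22, 0.03 and 0.01. Of the 7 measured genes of the fibrin clot, 1 passed the filter, Serpinf2, the plasmin inhibitor gene, with 0.26, and the fibrinogen genes Fga, Fgb and Fgg lay below it. The 5 measured seminal vesicle genes were all below the filter and belong to a family of close copies, so their values are uncertain.

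**Figure D4:**
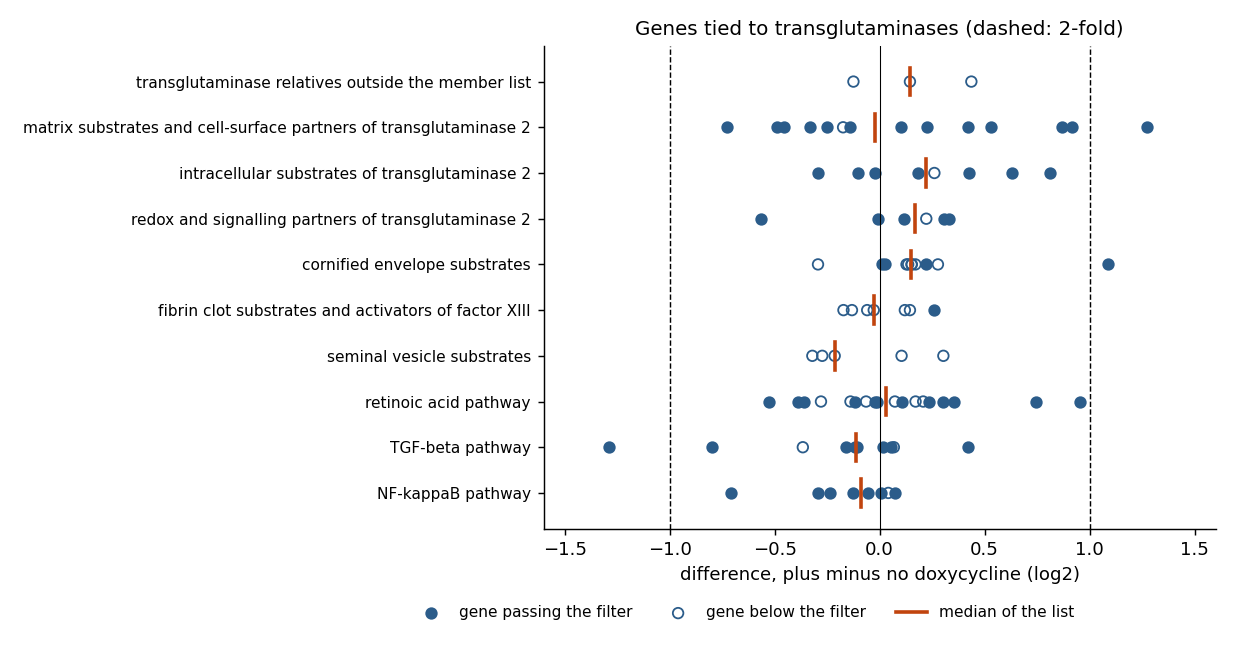
Log2 difference, plus minus no doxycycline (horizontal axis), of each measured gene in the 10 lists (rows), filled where the gene passed the expression filter and open where it did not, with the list median in orange and 2-fold as dashed lines. Itgb3 and Dsp lie past the upper line and Smad7 past the lower one, and the medians lie between -0.21 and 0.22. The row of relatives holds Tgm7, Epb42 and F13b, the last as a binding partner of F13a1.

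Lists for 3 inducers of Tgm2 mix ligands, receptors, inhibitors and targets, and the activity of the pathways was not tested. In the retinoic acid pathway, 9 of 18 measured genes had positive and 9 negative differences, with a median of 0.03 and 0 called. The retinoic acid binding protein genes Crabp1 and Crabp2 had the largest positive differences. Crabp1 had 10.94 with doxycycline and 9.98 without, a difference of 0.96, and Crabp2 had 7.38 with doxycycline and 6.64 without, a difference of 0.74. Some retinoic acid responsive genes of the list were named after their values were seen, and they do not cover all such genes. Rarb had 5.45 with doxycycline and 5.51 without, and Cyp26a1 had 5.56 with doxycycline and 5.35 without. Cyp26b1 had 6.27 with doxycycline and 6.19 without, and like these it lay below the filter. Stra6, Dhrs3 and Hoxb1 passed the filter and had differences of 0.35, 0.11 and -0.01. Stra8, a germ cell gene induced by retinoic acid, had a difference of -0.53, and the receptor gene Rxra had -0.39.

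In the TGF-beta pathway, 4 of 10 measured genes had positive and 6 negative differences, with a median of -0.11. Smad7, the feedback inhibitor of the pathway, was called lower, with 9.01 with doxycycline and 10.30 without. Ccn2, a connective tissue growth factor gene that TGF-beta induces, had 8.28 with doxycycline and 9.08 without, a difference of -0.80. The ligand gene Tgfb1, whose latent protein transglutaminase 2 helps to store in the matrix, had 0.42, and the receptor gene Tgfbr1 had -0.16. In the NF-kappaB pathway 0 of 7 genes passing the filter were called, and the median over 8 genes was -0.09. Icam1, an adhesion molecule gene induced by NF-kappaB, had -0.71, the kinase subunit gene Ikbkg -0.24, Relb -0.13 and Nfkbia -0.29.

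Markers of other cell types that make transglutaminases were read beside these values. In bulk RNA, a larger number of cells of a type and more RNA per cell cannot be told apart. Of 8 macrophage markers, 7 lay below the filter, 5 had positive and 3 negative differences, and the sum of their linear values was 440.3 with doxycycline and 455.5 without. Cd68, the 1 macrophage marker that passed, had 7.41 with doxycycline and 7.62 without. Without Cd68 the macrophage sums were 270 with doxycycline and 259 without, so the direction of the sum turned on that gene. Of 7 endothelial markers, 5 lay below the filter, including Cdh5, Kdr and Vwf, and 6 had positive differences and 1 a negative one. Tek had 7.31 with doxycycline and 6.50 without, and Pecam1 had 8.62 with doxycycline and 8.18 without. The sum of the list was 837 with doxycycline and 635 without. Pecam1 contributed most to that gap, and without it the sums were 444 with doxycycline and 345 without. All 8 keratinocyte markers lay below the filter, with 8 positive differences and sums of 451 with doxycycline and 384 without. Over all genes 51.6% of differences were positive, against 44.4% over genes passing the filter, so positive signs were more frequent among genes below the filter. Of 8 fibroblast and feeder markers, 5 passed the filter and 6 had positive differences, with sums of 760 with doxycycline and 644 without. Endoderm markers had 4 positive and 4 negative differences, with sums of 1056 with doxycycline and 1337 without. Cubn, with 8.18 with doxycycline and 9.11 without, accounted for most of that gap, and without it the sums were 766 with doxycycline and 783 without. The array gives no value of 0, so none of these markers can be called absent. No marker of these 5 lists reached 2-fold. Many of them lay below the filter, and only 0.920% of genes passing it were called higher and 0.768% lower. The absence of calls in these lists is thus near the background. The embryonic stem cell markers Klf2 and Sox2 were called lower, but Sox2 came under 2-fold with the offset of 32 (-0.996). The part of all 6 lists in the difference of Tgm2 was not tested.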

How the data were processed

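Total RNA of 2 cultures was hybridised to 1 array each. The authors made the values with RMA in Affymetrix Expression Console, per the submitters' processing notes. Software versions, genome build and gene models were not given in the sources used here. Values of 35556 probesets, deposited on the log2 scale, were used as they stand. RMA aligns the arrays and compresses differences of dim transcripts.

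Platform annotation assigned 21789 probesets to 1 gene, 1621 to several and 12146 to none. A gene was the mean of its probesets, which gave 19938 genes. The planned expression filter, 2-fold rule and alternatives (brightest probeset, loess with a span of 0.3, quantile normalization, an offset of 32, other filters, a 1.5-fold threshold) were applied to all genes. The 2-fold rule was tried on simulated data with large changes in genes well above the filter. That trial did not cover changes in dim genes, changes near 2-fold or variation between cultures. Genes named are the 7 members, Tgm7, Epb42, F13b and, in each list, the 4 most different genes that passed the filter. Also named are 5 neighbours on each side of Tgm2, the 5 genes nearest to it and the induced factors. Fn1, Txn1, Ivl, Lor, Rarb, Cyp26a1, Cyp26b1, Stra6, Dhrs3, Hoxb1, the fibrinogen genes and markers were named after their values were seen. The members and lists were chosen with earlier results of these data known. A planned protein comparison was not made. The tools were pandas 2.3.3 and NumPy 2.4.6 under Python 3.11.15, with statsmodels 0.14.6 for loess and matplotlib 3.10.9 for figures.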

Additional observations from a re-analysis of the deposited data

How the results depend on the processing

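Tgm2 was at least 2-fold higher with doxycycline under every alternative run, and its log2 difference lay between 2.62, with 32 added to the linear values, and 2.90. That offset also brought Tgm4 to 0.25. The other 5 members moved by less than 0.167, and only Tgm5 changed sign, in 1 of 4 alternatives. Each member has 1 probeset, so the brightest-probeset alternative returned the main values and could not move them. The count of members was 1 higher and 0 lower under each filter, scaling and threshold run, the 1.5-fold threshold included. The looser filters and the 1.5-fold threshold could add calls but could not remove that of Tgm2. Filter and threshold were varied 1 at a time. Tgm4, at 1.52-fold, was left out at the 1.5-fold threshold because it lay below the filter. Over all genes, 103 higher and 86 lower became 66 and 49 with the offset, and 363 and 425 at 1.5-fold. List medians changed sign in 4 of 48 recomputed values, all of them in the matrix and fibrin lists. The fibrin median was 0.26 when only genes passing the filter entered, which is the single gene Serpinf2. Among the other named genes that were called, Sox2 and Dsp came under 2-fold with the offset. With 1 array per group no sample could be left out. No paired analysis was possible because each group holds 1 array. Depth does not apply to arrays, and signal near background limits the values of the 4 dim members.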
